A study of Homo sapiens with 12 samples.

Results

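The genes described here are those of the G1 restriction step of the cell cycle: the kinases CDK4 and CDK6, the D cyclins CCND1, CCND2 and CCND3, the Cip/Kip inhibitor CDKN1B (p27) and the INK4 inhibitors CDKN2A (p16 and ARF), CDKN2B (p15), CDKN2C (p18) and CDKN2D (p19). They were chosen by gene symbol, and all 10 were found among the 26481 genes of the count table. Expression was measured by RNA-seq in 12 cultures of HEL, a human erythroleukemia cell line, here carrying DNA barcodes. The untreated group (NT, n = 2) received DMSO. The other groups were relapses, that is, cultures exposed to drug for about 72 h, cleared of dead cells and regrown to the seeded number over about a month: Doxo (1.8 µM doxorubicin, n = 3), Doxo+Cyta (1.8 µM doxorubicin with 6 µM cytarabine, n = 3) and Doxo+Cyta+DAC (both of these and 0.1 µM decitabine, which inhibits DNA methyltransferases, n = 4). All groups come from 1 cell line in culture, and RNA was taken after regrowth, not during exposure.

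In G1, a D cyclin binds CDK4 or CDK6, and the active kinase phosphorylates the RB1 family of pocket proteins, which releases E2F factors and lets the cell enter S phase. INK4 proteins bind the kinases themselves and keep the D cyclins off. CDKN1B binds the assembled complexes and CDK2. In blood cells the 3 D cyclins are used in a manner that depends on lineage and stage, and loss of INK4 genes is common in leukemia.

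Total counts per library ranged from 12763582 to 19106235, so that 3 counts corresponded to 0.157 to 0.235 CPM, a limit that covers counting error only. Levels are CPM, that is, counts divided by TMM-adjusted library totals. All 9 erythro-megakaryocytic markers examined, GATA1 and ITGA2B among them, had counts in every library (summed level 6089 to 10459 CPM, lowest in Doxo+Cyta+DAC at 6089 to 8284 CPM), and the 3 T-cell and 3 B-cell markers never exceeded 2 counts. The 3 monocyte markers summed to 27.9 to 28.4 CPM in NT, 32.0 to 45.1 CPM in Doxo, 36.1 to 42.5 CPM in Doxo+Cyta and 26.6 to 29.3 CPM in Doxo+Cyta+DAC, nearly all of it LYZ (344 to 772 counts), with CD14 at 0 to 8 counts and FCN1 at 0; their part in the results was not tested. Fibroblast and epithelial markers had at most 19 and 11 counts each. In pairs of libraries from 1 group, chi-square per degree of freedom was 29.8 and 32.4 for Doxo 4 against the other Doxo libraries and 51.1 and 53.1 for Doxo+Cyta 20 against the other Doxo+Cyta libraries, but 3.28 to 17.9 for every other pair. Doxo 4 and Doxo+Cyta 20 therefore stood apart from their groups, and results for members are in places also given without them. The tests of pathway genes and neighbours and the correlations are from all 12 libraries only. The p-values below are from edgeR's quasi-likelihood test over all 12 libraries, adjusted by Benjamini-Hochberg over 14164 tested genes, with a gene called at an adjusted p under 0.05. Of the 10 members, 8 passed the filter on low counts, and CDKN2A and CDKN2B did not. In bulk RNA, fewer cells of a kind and less RNA per cell cannot be told apart.

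Members were called in the comparisons of Doxo+Cyta+DAC with each other group and in no comparison without decitabine in the edgeR fit of all 12 libraries; other fits that called some are given below. Against Doxo+Cyta, 3 members were higher (CDK4, CCND3 and CDK6) and 4 lower (CDKN1B, CDKN2D, CCND2 and CDKN2C) in Doxo+Cyta+DAC, where 29.8% and 30.5% of all tested genes were called higher and lower. Against Doxo, 2 were higher (CDK4 and CCND3) and 3 lower (CDKN1B, CDKN2D and CCND2), beside 29.1% and 30.4% of all genes. Against NT, CDK4 was higher and CDKN1B lower, beside 24.9% and 23.7% of all genes. The median log2 fold change of the 8 members was -0.08 against Doxo+Cyta, 0.04 against Doxo and -0.14 against NT, and that of all tested genes was 0.00, -0.01 and 0.02. The 3 comparisons share the Doxo+Cyta+DAC libraries. In all, 7 of the 8 tested members were called against Doxo+Cyta, 5 against Doxo and 2 against NT, and the difference of these shares from those of all genes was not tested.

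**Figure D1:**
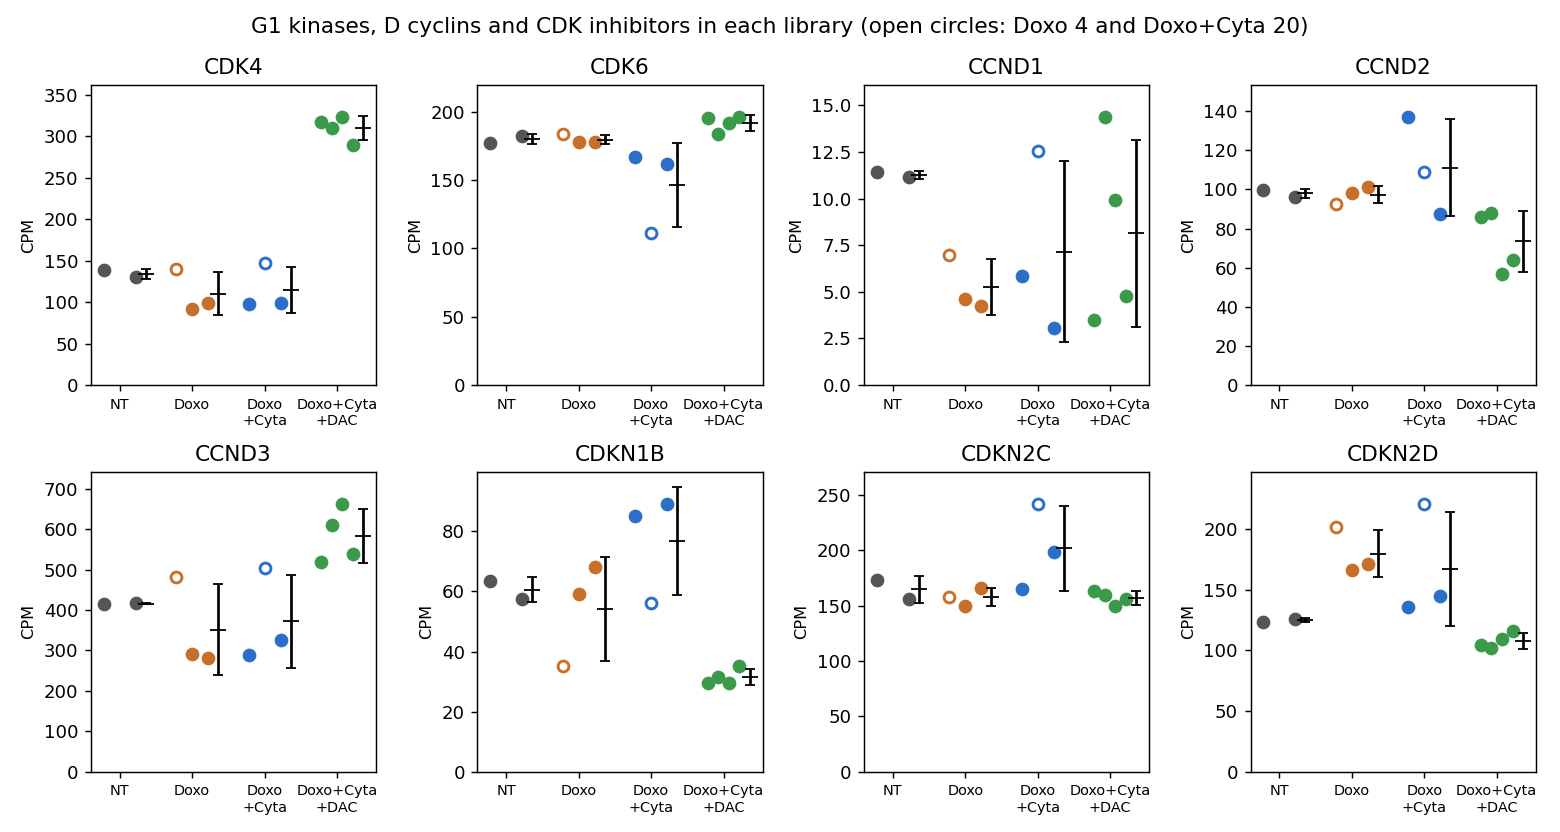
CPM of the 8 members with reads, by group; each circle is 1 library, the black mark and bar are the mean and SD, and open circles are Doxo 4 and Doxo+Cyta 20. The 4 Doxo+Cyta+DAC libraries lie above all others for CDK4 and CCND3 and below all NT, Doxo and Doxo+Cyta libraries for CDKN2D; for CDKN1B Doxo 4 lies among them.

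The promoters of CDK4, CDKN1B and CDKN2D are shown because CDK4 was called higher, and CDKN1B and CDKN2D lower, against both Doxo and Doxo+Cyta in every alternative examined. The sequences are from RefSeq (GRCh38.p14), 5′ to 3′ on the gene's strand: the part of the 250 bases before the RefSeq start that lies outside the gene record of the count table. They are chr12:57752448-57752560 (minus strand), chr12:12717118-12717269 (plus strand) and chr19:10568980-10569229 (minus strand). Capitals mark CACGTG, the E-box bound by MYC and its partner MAX, which reads the same on both strands.
CDK4: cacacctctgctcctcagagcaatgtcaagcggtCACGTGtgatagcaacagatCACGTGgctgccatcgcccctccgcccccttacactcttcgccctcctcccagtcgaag
CDKN1B: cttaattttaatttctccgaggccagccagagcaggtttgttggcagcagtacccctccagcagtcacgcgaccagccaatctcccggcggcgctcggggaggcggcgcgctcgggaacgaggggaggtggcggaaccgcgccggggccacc
CDKN2D: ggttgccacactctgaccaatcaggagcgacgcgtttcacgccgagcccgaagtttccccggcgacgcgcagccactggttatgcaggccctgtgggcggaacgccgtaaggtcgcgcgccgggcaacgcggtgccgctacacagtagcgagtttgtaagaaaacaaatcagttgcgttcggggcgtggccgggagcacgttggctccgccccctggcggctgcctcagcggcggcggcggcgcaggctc

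In the full 250 bases before its start, CDK4 held 3 E-boxes, beginning 216, 196 and 101 bases upstream. The one at 101 bases lies inside the gene record of the count table. At least 1 E-box was present in 6.35% of 35116 human promoters in windows of the same length, and 3 or more in 0.0797%. The cutoff of 3 is the count in CDK4 itself, so the last share is a description and not a test. CDKN2C held 1 E-box in each of the windows of 2 of its 3 starts, 220 and 69 bases upstream. The windows of CDKN1B, CDKN2D, CDK6, CCND3, CDKN2A and CDKN2B held none. No member's window held the E2F letters TTTCCCGC, TTTGGCGC, TTTCGCGC or TTTGCCGC or the FOXO letters GTAAACA on either strand, which occur in 2.79% and 2.98% of promoters. CCND1 and CCND2 were not examined. The windows held 19 CG pairs in CDK4, 27 in CDKN1B and 33 in CDKN2D, beside a median of 11 over all promoters. These matches describe letters; neither binding nor methylation was measured here.

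CDK4 (chromosome 12, 57747727 to 57752447, minus strand, GRCh38) is the kinase gene whose promoter stretch, shown above, carries 2 of its 3 E-boxes. Its level was 139 and 129.8 CPM in NT 1 and 2, 139.5, 91.4 and 98.5 CPM in Doxo 4, 5 and 6, 97.6, 147 and 99.2 CPM in Doxo+Cyta 19, 20 and 22, and 316, 309.6, 323 and 289.6 CPM in Doxo+Cyta+DAC 30 to 33. The 4 decitabine relapses were all above every other library, and the groups did not overlap. The fold difference was 2.31 against NT (log2 1.21, SE 0.19, adjusted p = 0.000177), 2.82 against Doxo (adjusted p = 5.26e-06) and 2.71 against Doxo+Cyta (adjusted p = 5.77e-06). Within Doxo and within Doxo+Cyta, the library that stood apart was the highest for CDK4, at a level close to NT. Without Doxo 4 and Doxo+Cyta 20, the log2 difference was 1.71 against Doxo and 1.65 against Doxo+Cyta, so it did not rest on them. Of the 2002 exon bases of CDK4, 517 are shared with TSPAN31 on the other strand, where the authors' counting left out fragments that touch both genes. TSPAN31 itself was not called against Doxo (log2 -0.26, SE 0.13, adjusted p = 0.0992) and likewise not against Doxo+Cyta (-0.04, SE 0.13, adjusted p = 0.807). MARCH9, the neighbour on the other side, had log2 differences of -1.26 (adjusted p = 3.06e-05) from Doxo and -1.6 (adjusted p = 3.35e-06) from Doxo+Cyta. The higher level of CDK4 was thus not seen in the genes beside it.

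CDK6 (chromosome 7, 92604921 to 92836627) encodes the partner kinase with the same D cyclins, and its level varied little. It had 177 and 183 CPM in NT, 183, 178 and 178 CPM in Doxo 4 to 6, 167, 111 and 162 CPM in Doxo+Cyta 19, 20 and 22, and 196, 184, 192 and 196 CPM in Doxo+Cyta+DAC. Doxo+Cyta 20 was the lowest library. CDK6 was 1.31 times higher in Doxo+Cyta+DAC than in Doxo+Cyta (log2 0.39, SE 0.12, adjusted p = 0.0128), a value that fell to 0.22 (adjusted p = 0.00848) without Doxo 4 and Doxo+Cyta 20. It was not called against Doxo (log2 0.09, 95% interval -0.16 to 0.35, adjusted p = 0.516) or NT (0.09, -0.20 to 0.38, adjusted p = 0.599). Per kilobase of exon, CDK4 lay above CDK6 in every library. Different genes can be set side by side on this scale, but it reads lower for genes with many short or shared exons. The extent of this was not tested. The ratio of CDK4 to CDK6 per kilobase was 4.18 to 4.59 in NT, 3.02 to 4.47 in Doxo, 3.43 to 7.74 in Doxo+Cyta and 8.67 to 9.90 in Doxo+Cyta+DAC, with the value of 7.74 in Doxo+Cyta 20 and 3.61 as the highest of the other Doxo+Cyta libraries.

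**Figure D2:**
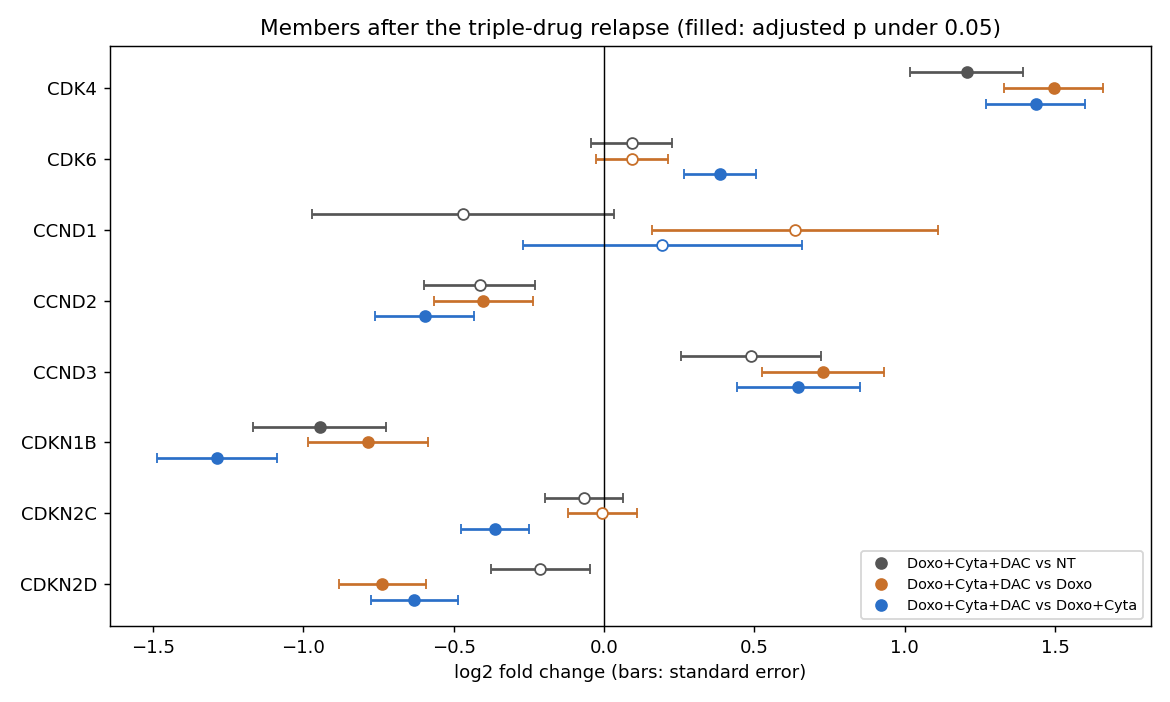
Log2 fold change of each tested member in Doxo+Cyta+DAC against NT, Doxo and Doxo+Cyta; bars are standard errors and filled circles have an adjusted p under 0.05. CDK4 lies to the right of 0 and CDKN1B to the left in all 3 comparisons with filled circles; the bars of CCND1 are the widest.

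CCND3 (chromosome 6, 41934933 to 42048894) supplied most of the D cyclin RNA. Its level was 415 and 416 CPM in NT, 483, 290.4 and 283 CPM in Doxo 4, 5 and 6, 289, 503 and 325 CPM in Doxo+Cyta 19, 20 and 22, and 518, 611, 663 and 539 CPM in Doxo+Cyta+DAC 30 to 33. Doxo 4 and Doxo+Cyta 20 were above NT and the other libraries of their groups below it, while every decitabine relapse was above them all. CCND3 was 1.66 times higher than in Doxo (log2 0.73, SE 0.20, adjusted p = 0.00715) and 1.57 times higher than in Doxo+Cyta (0.65, SE 0.20, adjusted p = 0.0135). The call against Doxo+Cyta was lost without Doxo+Cyta 19 (0.48, adjusted p = 0.0811) or without Doxo+Cyta 22 (0.55, adjusted p = 0.0654). Without Doxo 4 and Doxo+Cyta 20 the log2 differences were 1.03 and 0.92. Against NT it was not called (log2 0.49, 95% interval -0.01 to 0.99, adjusted p = 0.0972), although the groups did not overlap; it was called at 0.46 (adjusted p = 0.001) without these libraries and at 0.45 (adjusted p = 0.00392) when NT and Doxo+Cyta+DAC alone were fitted.

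CCND2 (chromosome 12, 4273736 to 4305356) moved the other way. It had 99.6 and 96.3 CPM in NT, 92.5, 98.0 and 101 CPM in Doxo, 137, 109 and 87.4 CPM in Doxo+Cyta 19, 20 and 22, and 85.8, 87.8, 56.8 and 64.0 CPM in Doxo+Cyta+DAC 30 to 33. The decitabine relapses were below all NT and Doxo libraries and overlapped Doxo+Cyta at 87.4 CPM. It was 1.51 times lower than in Doxo+Cyta (log2 -0.60, SE 0.16, adjusted p = 0.00624). The difference from Doxo (log2 -0.40, SE 0.16, adjusted p = 0.0484) lay at the threshold: it was not called with DESeq2 (-0.40, adjusted p = 0.0516), with RLE scaling (-0.40, adjusted p = 0.053), without any single Doxo library (adjusted p = 0.0644, 0.106 and 0.126) or without Doxo+Cyta+DAC 32 or 33 (adjusted p = 0.14 and 0.12). Against NT the log2 difference was -0.41 (95% interval -0.81 to -0.02, adjusted p = 0.0786). It was called there with upper-quartile scaling (-0.50, adjusted p = 0.0405), with no filter (-0.45, adjusted p = 0.042), when NT and Doxo+Cyta+DAC alone were fitted (-0.45, adjusted p = 0.0339) and without Doxo+Cyta+DAC 31 (-0.51, adjusted p = 0.0408).

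CCND1 (chromosome 11, 69641105 to 69654474), the D cyclin of many solid tissues, was low and uneven. It had 11.4 and 11.1 CPM in NT, 6.98, 4.6 and 4.23 CPM in Doxo 4 to 6, 5.87, 12.5 and 3.06 CPM in Doxo+Cyta 19, 20 and 22, and 3.49, 14.4, 9.92 and 4.75 CPM in Doxo+Cyta+DAC 30 to 33. The decitabine relapses spread from 3.49 to 14.4 CPM, and all Doxo libraries were below NT. It was called in no comparison, with standard errors of 0.46 to 0.54, so that the difference of Doxo from NT (log2 -1.10, 95% interval -2.27 to 0.06, adjusted p = 0.2) remained wide. In that comparison it was called without Doxo 4 and Doxo+Cyta 20 (-1.38, adjusted p = 0.0467) and when Doxo and NT alone were fitted (-1.10, adjusted p = 0.0243).

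Summed per kilobase over the 3 D cyclins, CCND3 made up 88.0% and 88.4% in NT, 84.4% to 90.6% in Doxo, 80.3% to 89.0% in Doxo+Cyta and 92.0% to 95% in Doxo+Cyta+DAC. The share of CCND2 was 9.91% to 10.3% in NT and 3.95% to 7.39% in Doxo+Cyta+DAC, and CCND1 made up 0.458% to 1.79% in all libraries. The order CCND3, CCND2, CCND1 held in each of the 12 libraries.

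**Figure D3:**
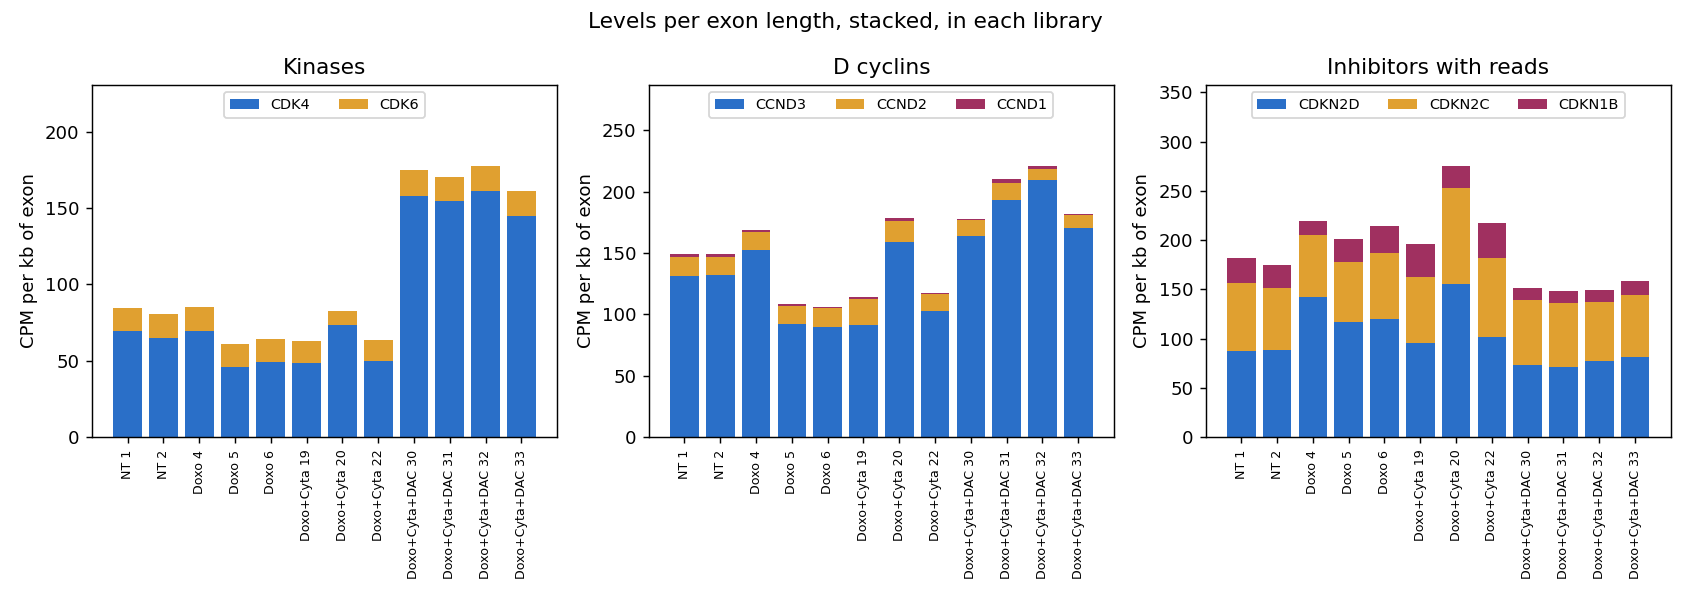
Stacked bars of CPM per kilobase of exon for the kinases, the D cyclins and the inhibitors with reads, in each of the 12 libraries. In Doxo+Cyta+DAC the CDK4 part alone is 145 to 161, above the whole kinase bar of every other library, and CCND3 fills most of every D cyclin bar.

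CDKN1B (chromosome 12, 12717270 to 12722382) encodes p27, which halts cyclin E and CDK2 complexes and also helps CDK4 assemble with its cyclin. It had 63.5 and 57.6 CPM in NT, 35.0, 59.2 and 68.3 CPM in Doxo 4, 5 and 6, 85.0, 56.2 and 89.2 CPM in Doxo+Cyta 19, 20 and 22, and 29.6, 31.4, 29.7 and 35.2 CPM in Doxo+Cyta+DAC 30 to 33. Doxo 4 fell among the decitabine relapses, and no NT or Doxo+Cyta library did. The level in Doxo+Cyta+DAC was lower than in NT by 1.93-fold (log2 -0.94, SE 0.22, adjusted p = 0.00313), than in Doxo by 1.72-fold (adjusted p = 0.00394) and than in Doxo+Cyta by 2.44-fold (adjusted p = 8.04e-05). Without the 2 libraries that stood apart the log2 differences were -0.97, -1.01 and -1.47. Its neighbours GPR19 and APOLD1 had at most 33 and 80 counts. APOLD1 was lower than in Doxo+Cyta (log2 -0.88, SE 0.26, adjusted p = 0.00917) and not called against Doxo (-0.56, SE 0.26, adjusted p = 0.0821). GPR19 was called in neither of these comparisons (adjusted p = 0.122 and 0.243).

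CDKN2D (chromosome 19, 10566462 to 10568979), the INK4 gene with the highest level per kilobase in NT, had 124 and 126 CPM there. It had 202, 167 and 171 CPM in Doxo 4, 5 and 6, 136, 221 and 145 CPM in Doxo+Cyta 19, 20 and 22, and 104, 102, 109 and 116 CPM in Doxo+Cyta+DAC 30 to 33. Every relapse after chemotherapy alone was above NT and every decitabine relapse below it. Against Doxo and Doxo+Cyta the decitabine relapses were lower by 1.67-fold (log2 -0.74, SE 0.14, adjusted p = 0.000605) and 1.55-fold (-0.63, SE 0.14, adjusted p = 0.00186); against Doxo+Cyta the value was -0.38 (adjusted p = 0.000407) without Doxo 4 and Doxo+Cyta 20. The differences from NT did not pass: 0.53 (95% interval 0.15 to 0.90, adjusted p = 0.0691) in Doxo, 0.42 (0.04 to 0.80, adjusted p = 0.201) in Doxo+Cyta and -0.21 (-0.56 to 0.14, adjusted p = 0.305) in Doxo+Cyta+DAC. In Doxo+Cyta+DAC, CDKN2D was called lower than in NT without Doxo 4 and Doxo+Cyta 20 (-0.24, adjusted p = 0.0125). It was also called there when NT and Doxo+Cyta+DAC alone were fitted (-0.25, adjusted p = 0.0248). The gene beside CDKN2D, KRI1, whose product takes part in ribosome assembly and which lies 436 bases away, was higher than in Doxo and Doxo+Cyta (log2 0.90 and 0.87, adjusted p = 0.000479 and 0.000566). AP1M2 on the other side was not called (-0.0046 and -0.33, adjusted p = 0.986 and 0.156).

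CDKN2C (chromosome 1, 50968695 to 50974637) encodes an INK4 protein of many blood cells. It had 173 and 156 CPM in NT, 158, 149 and 166 CPM in Doxo, 165, 242 and 199 CPM in Doxo+Cyta 19, 20 and 22, and 164, 159.7, 149 and 156 CPM in Doxo+Cyta+DAC. Doxo+Cyta 20 and 22 were the highest libraries, and the other groups overlapped. CDKN2C was 1.29 times lower in Doxo+Cyta+DAC than in Doxo+Cyta (log2 -0.36, SE 0.11, adjusted p = 0.0138), a call that was lost without Doxo+Cyta 20 (-0.21, adjusted p = 0.062) and held without both Doxo 4 and Doxo+Cyta 20 (-0.22, adjusted p = 0.0426). It differed from Doxo by -0.01 (95% interval -0.25 to 0.24, adjusted p = 0.969) and from NT by -0.07 (-0.35 to 0.21, adjusted p = 0.694).

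Kinases and inhibitors were also set against each other within each library. The summed level per kilobase of CDK4 and CDK6, divided by that of the 5 inhibitors, was 0.461 and 0.463 in NT, 0.300 to 0.389 in Doxo, 0.292 to 0.322 in Doxo+Cyta and 1.02 to 1.19 in Doxo+Cyta+DAC. CDK4 exceeded CDKN2D per kilobase in the 4 decitabine relapses (ratio 1.78 to 2.16) and in none of the other 8 libraries (0.390 to 0.796). The ratio of CDK4 to CDKN1B was 2.75 and 2.84 in NT, 1.82 to 5.02 in Doxo, 1.40 to 3.29 in Doxo+Cyta and 10.4 to 13.7 in Doxo+Cyta+DAC, with the upper ends of both chemotherapy groups in Doxo 4 and Doxo+Cyta 20. These ratios combine members whose tests are given above and were not tested themselves. They carry the limit of the scale per kilobase, so whether a ratio lies above or below 1 is uncertain.

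CDKN2A (chromosome 9, 21967752 to 21994491) and CDKN2B (chromosome 9, 22002903 to 22009313) had 0 counts in each of the 12 libraries. Over 193560490 counts in all, this allows a level of up to 0.0155 CPM, and up to 0.157 to 0.235 CPM in a single library. The decitabine relapses were no exception. A count of 0 throughout is not rare in the table, since 6142 genes (23.2%) had none, but the genes around this pair were at 0 as well. A stretch of 31 consecutive genes runs from HACD4 to IZUMO3 (chromosome 9, 21006366 to 24545676, 3.54 Mb). Its ends were set from these same counts, so its share of genes at 0 is a description and not a test. Of the 31 genes, 29 had 0 counts in all libraries. These include KLHL9, a ubiquitin ligase adaptor, and the interferon alpha genes, whose near-identical copies would also lose fragments in the authors' counting. MTAP, a methionine salvage enzyme made in most tissues, had 3 counts over all 12 libraries, in Doxo+Cyta+DAC 30 and 31, and CDKN2B-AS1, the antisense RNA ANRIL, had 20 over 9 libraries and at most 4 in 1. On either side counts resumed: FOCAD had 219 to 599 per library and TUSC1 580 to 1694. FOCAD was lower in Doxo+Cyta+DAC than in NT, Doxo and Doxo+Cyta (log2 -0.92, -0.91 and -0.85, adjusted p = 0.00317, 0.00117 and 0.00194). Whether the DNA of this stretch is present in these cells was not tested.

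No member was called between the groups without decitabine. None of the 8 was called in Doxo against NT, where 6.06% of all tested genes were higher and 4.63% lower; CDKN2D had an unadjusted p under 0.05, and DESeq2 called it (log2 0.51, adjusted p = 0.0437). None was called in Doxo+Cyta against NT (background 0.911% higher and 0.551% lower), with 1 at an unadjusted p under 0.05, again CDKN2D, and 0 by DESeq2. None was called in Doxo+Cyta against Doxo (1.07% higher and 2.32% lower), with 3 at an unadjusted p under 0.05 (CDK6, CDKN1B and CDKN2C) and 0 by DESeq2. When Doxo and NT alone were fitted, CDKN2D (0.53, adjusted p = 0.0289) and CCND1 were called. The counts also depended on the libraries that stood apart. With Doxo 4 and Doxo+Cyta 20 left out, a choice made after the values were seen, Doxo was lower than NT in CDK4 (log2 -0.53, adjusted p = 0.000473), CCND3 (-0.57, adjusted p = 0.00177) and CCND1 and higher in CDKN2D (0.41, adjusted p = 0.00269). Doxo+Cyta was then lower than NT in CDK4 (-0.47, adjusted p = 0.00358) and CCND3 (-0.46, adjusted p = 0.016) and higher in CDKN1B (0.50, adjusted p = 0.0108), and CDKN1B was higher in Doxo+Cyta than in Doxo (0.46, adjusted p = 0.0231). Doxo 4 and Doxo+Cyta 20 were the highest of their groups for CDK4, CCND3, CCND1 and CDKN2D and the lowest for CDKN1B.

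Of 40 other genes of the pathway, chosen with earlier results of these data known, 39 were tested. In Doxo+Cyta+DAC, 21 were higher and 10 lower than in Doxo, 20 higher and 6 lower than in Doxo+Cyta, and 19 higher and 5 lower than in NT, with median log2 fold changes of 0.45, 0.50 and 0.35. Of all tested genes, 29.1% were higher and 30.4% lower than in Doxo, 29.8% and 30.5% than in Doxo+Cyta, and 24.9% and 23.7% than in NT. In Doxo against NT 1 was higher and 2 lower, in Doxo+Cyta against NT 1 was lower, and in Doxo+Cyta against Doxo 2 were lower. The shares of all tested genes, higher and lower, were 6.06% and 4.63%, 0.911% and 0.551%, and 1.07% and 2.32%, in the same order.

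Downstream of the kinases, the pocket proteins split. RBL1 (p107) had 27.0 to 32.0 CPM in the decitabine relapses and 7.20 to 12.4 CPM in all other libraries (log2 1.72 against Doxo, SE 0.16, adjusted p = 1.75e-06), and RBL2 (p130), the form typical of resting cells, had 31.1 to 41.0 CPM beside 64.6 to 115 CPM (-1.56, SE 0.18, adjusted p = 9.35e-06). RB1 was lower than in Doxo (-0.64, SE 0.20, adjusted p = 0.0135) and not called against NT or Doxo+Cyta. All 3 E2F activators were higher than in NT, Doxo and Doxo+Cyta, beside 24.9%, 29.1% and 29.8% of all genes. E2F2 had 123 to 142 CPM beside 38.6 to 60.8 CPM elsewhere (1.52 against Doxo, SE 0.15, adjusted p = 2.35e-06), and E2F1 124 to 153 CPM beside 30.9 to 79.2 CPM (1.63, SE 0.28, adjusted p = 0.000178).

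Of CDK2 and its 4 cyclins, 4 were higher and CCNA2 lower than in Doxo, and 3 were higher and none lower than in Doxo+Cyta and NT, beside 29.1% higher and 30.4% lower of all genes against Doxo, 29.8% and 30.5% against Doxo+Cyta and 24.9% and 23.7% against NT. CCNE1 and CCNE2, which drive S phase entry with CDK2, were higher than in Doxo (log2 1.44 and 1.38, adjusted p = 0.00296 and 5.9e-06). CCNA1 was called against Doxo (adjusted p = 0.0255), but 85.1 CPM in Doxo+Cyta+DAC 31 stood beside 1.90 to 4.10 CPM in the other decitabine relapses, and the groups overlapped. CDC25A, the phosphatase that removes inhibitory phosphate from CDKs, had 144 to 163 CPM beside 45.0 to 86.6 CPM in all other libraries (1.14 against Doxo, SE 0.13, adjusted p = 6.23e-06). CDK7, the CDK-activating kinase, was lower than in Doxo (-0.83, SE 0.14, adjusted p = 0.000176), Doxo+Cyta (-0.60, SE 0.14, adjusted p = 0.00209) and NT (-0.57, SE 0.16, adjusted p = 0.00808). CCNH and MNAT1, also listed for CDK activation, were called against neither Doxo nor Doxo+Cyta. CCNH was higher than in NT (0.44, SE 0.13, adjusted p = 0.0114), and MNAT1 was not called there.

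Of the other Cip/Kip inhibitors, CDKN1A (p21) differed from CDKN1B in its calls and CDKN1C (p57) shared them. CDKN1A had 11.1 and 11.4 CPM in NT, 128, 84.8 and 81.5 CPM in Doxo 4, 5 and 6, 11.9, 46.0 and 13.1 CPM in Doxo+Cyta 19, 20 and 22, and 34.5, 91.5, 67.7 and 49.7 CPM in Doxo+Cyta+DAC. It was higher than NT in Doxo (log2 3.13, SE 0.56, adjusted p = 0.0054) and in Doxo+Cyta+DAC (2.44, SE 0.53, adjusted p = 0.00189) and lower in Doxo+Cyta than in Doxo (-2.06, SE 0.45, adjusted p = 0.0251). Doxo+Cyta+DAC was above Doxo+Cyta (1.37, SE 0.42, adjusted p = 0.0124), although Doxo+Cyta 20 overlapped it. CDKN1C had 3 to 28 counts in the 8 libraries without decitabine and 0 counts in each of the 4 decitabine relapses, and like CDKN1B it was called lower there than in NT, Doxo and Doxo+Cyta (adjusted p = 0.00221, 9.33e-05 and 4.79e-05).

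Among 7 genes for the turnover of the CDKN1B protein, 5 were higher and 1 (UBAC1) lower in Doxo+Cyta+DAC than in Doxo, and 5 were higher and none lower than in Doxo+Cyta (edgeR; UBAC1 and CKS1B were not called). Of all genes, 29.1% were higher and 30.4% lower in the first of these comparisons and 29.8% and 30.5% in the second. RBX1 of the SCF ubiquitin ligase was among the higher genes (0.88 against Doxo, SE 0.14, adjusted p = 9.32e-05). SKP2, which recognises phosphorylated CDKN1B, was higher than in Doxo by 0.54 (SE 0.13, adjusted p = 0.00235). Against NT, 3 of the 7 were higher and none lower, beside 24.9% and 23.7% of all genes. SKP2 was not called against NT (-0.02, SE 0.14, adjusted p = 0.919). In Doxo, SKP2 and RNF123, of the ligase that acts on CDKN1B in the cytoplasm, were lower than in NT (-0.56 and -0.51, adjusted p = 0.029 and 0.044). The 3 chaperone genes for CDK4 were higher than in NT, Doxo and Doxo+Cyta, beside 24.9%, 29.1% and 29.8% of all genes. HSP90AA1 had 1357 to 1612 CPM beside 389 to 607 CPM elsewhere (1.5 against Doxo, SE 0.11, adjusted p = 3.42e-07). CDC37, which loads kinases onto HSP90, was higher than in Doxo by 0.79 (SE 0.13, adjusted p = 0.000187). Of 4 tested genes for D cyclin turnover, FBXO31 was higher than in Doxo (0.66, SE 0.12, adjusted p = 0.000255), as was FBXO4, and AMBRA1 and GSK3B were not called. Against Doxo+Cyta and NT, only FBXO31 was called higher (0.52 and 0.53, adjusted p = 0.00137 and 0.00433). Of all genes, 29.1%, 29.8% and 24.9% were higher than in Doxo, Doxo+Cyta and NT.

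Among 8 regulators of transcription, MYC had 455 to 539.9 CPM in the decitabine relapses beside 172 to 283 CPM elsewhere (1.08 against Doxo, SE 0.11, adjusted p = 3.74e-06). It was lower in Doxo+Cyta than in NT (-0.57, SE 0.13, adjusted p = 0.0489). That call lay just under the threshold, in a comparison whose calls depended on the libraries kept. FOXO4, one of the FOXO factors known to activate CDKN1B, had 10.5 to 15.0 CPM beside 23.0 to 37.9 CPM (-1.34, SE 0.19, adjusted p = 3.58e-05). CBX7, a Polycomb protein known to silence CDKN2A, had 0.674 to 1.19 CPM beside 3.61 to 6.74 CPM (-2.09, SE 0.24, adjusted p = 8.57e-06). EZH2, also a Polycomb gene, was higher (0.51 against Doxo, SE 0.09, adjusted p = 0.000247). BMI1, another, was not called against Doxo (0.33, SE 0.25, adjusted p = 0.282). Of the 8, 2 were higher and 4 lower than in Doxo, 2 and 3 than in Doxo+Cyta, and 2 and 2 than in NT. Of all genes, 29.1% were higher and 30.4% lower than in Doxo, 29.8% and 30.5% than in Doxo+Cyta, and 24.9% and 23.7% than in NT.

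Over the 12 libraries, the genes whose log2 CPM followed a member most closely were ranked by Pearson's r, which is a description, since the libraries fall into 4 groups. For CDK4 they were RRP1 (r = 0.998), NME1 (0.997) and MRPS7 (0.997), and for CCND3 AKT1 (0.982), ID1 (0.978) and MARCKSL1 (0.977). For CDKN1B they were TRIM5 (0.965), HERC2P4 (0.958, a pseudogene that shares sequence with its copies) and ASB8 (0.957), and for CDKN2D TGFB1I1 (0.969), ST6GALNAC6 (0.966) and PHF19 (0.957). RALGAPA1 (0.963) and CDC42BPA (0.959) were among the closest to CDK6. CCND2 was closest to SLC29A3 (0.930), U2AF1L4 (0.930) and PLXNB1 (0.914), CDKN2C to PEF1 (0.928), BLVRA (0.915) and COMMD7 (0.904), and CCND1 to ETV4 (0.903), GMPR (0.883) and HSH2D (0.860). Among the members themselves, r was 0.906 between CDK4 and CCND3, -0.892 between CDK4 and CDKN1B and -0.915 between CDK6 and CDKN2C. For the last pair, Doxo+Cyta 20 was both the lowest library for CDK6 (111 CPM) and the highest for CDKN2C (242 CPM). No r was computed without the libraries that stood apart.

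Beside CCND3, BYSL, which acts in small ribosomal subunit assembly, was higher in Doxo+Cyta+DAC than in Doxo and Doxo+Cyta (log2 1.52 and 1.74, adjusted p = 5.5e-05 and 1.66e-05), and TAF8 on the other side by 0.31 (adjusted p = 0.0265) and 0.41 (adjusted p = 0.00545). Beside CCND2, TIGAR was not called against Doxo (0.08, SE 0.35, adjusted p = 0.864) and was higher than in Doxo+Cyta by 2.50 (SE 0.42, adjusted p = 0.000158), where CCND2 was lower. FAF1 beside CDKN2C was lower by 0.50 and 0.51 (adjusted p = 0.000291 and 0.000222). FAM133B beside CDK6 was higher by 0.47 and 0.82 (adjusted p = 0.0069 and 0.000137), and LOC101927497, which overlaps CDK6 and had 11 to 33 counts, was not called against Doxo (0.50, adjusted p = 0.179) and was higher than in Doxo+Cyta (0.80, adjusted p = 0.0437). ORAOV1 beside CCND1 was higher by 0.91 and 0.84 (adjusted p = 0.000459 and 0.000806). CCND2-AS1 had at most 1 count per library, and LINC01488 beside CCND1, MIR4421 beside CDKN2C and CDKN2A-AS1 had 0.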

How the data were processed

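RNA libraries of 12 HEL cultures were made with a TruSeq kit and sequenced as paired reads. The authors filtered reads with fastx-toolkit and in-house scripts, aligned them to GRCh38 with Bowtie2 2.2.8, which is not splice-aware, and counted fragments per gene with featureCounts 1.6.0 without regard to strand. The deposited values are these raw counts, not normalized. Fragments in several places or several genes were left out of the counts, so levels per kilobase are lower for genes with many short exons or shared exons, to an extent not tested. Exon lengths are those in the deposited table.

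Samples were grouped by their titles. Of 26485 genes, 4 lacked a count. Genes were filtered with filterByExpr, scaled by TMM and fitted with edgeR 4.0.16 (quasi-likelihood, all 12 libraries). DESeq2 1.42.0, RLE and upper-quartile scaling, no filter, fits of only the compared groups and leaving out each library were alternatives. The pipeline was tested on simulated counts. Standard errors are the log2 fold change over the root of F, and likeness used log2 CPM with a prior count of 2. The labels describe biological replicates of each treatment, and do not say so of NT on its own, whose spread may be technical. No batch is named in the labels. The series text gives 3 untreated samples, and the 2 that are labelled were used.

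Members and gene lists were chosen with earlier results of these data known. All members are named, as are listed genes with a log2 change over 1 at an adjusted p under 0.05 in both decitabine comparisons with chemotherapy or in any with NT, the 3 genes most like each member (1 of them is not reported here), and its neighbours within the table. Others named were chosen after their values were seen. Neighbour records longer than 2500000 bases, which belong to repeated genes, were skipped.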

Additional observations from a re-analysis of the deposited data

How the results depend on the processing

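The direction of every called member was kept under all alternatives, and 10 calls were lost in single alternatives, those of CCND2 against Doxo, CCND3 against Doxo+Cyta and CDKN2C against Doxo+Cyta described above. Leaving out Doxo 4 and Doxo+Cyta 20 gave 4 members called in Doxo against NT, 3 in Doxo+Cyta against NT, 4 in Doxo+Cyta+DAC against NT and 1 in Doxo+Cyta against Doxo, and 5267, 2037 and 1261 genes of all in Doxo and Doxo+Cyta against NT and Doxo+Cyta against Doxo. DESeq2 called 1 member in Doxo against NT, and 828 and 917 genes in Doxo+Cyta against NT and against Doxo, beside 207 and 481 with edgeR. Fitting only the compared groups called 2 members in Doxo against NT and 5 in Doxo+Cyta+DAC against NT, and 13 and 67 genes in Doxo+Cyta against NT and against Doxo; without the filter the count for Doxo+Cyta against NT was 358. Upper-quartile scaling turned 152 higher and 329 lower genes in Doxo+Cyta against Doxo into 205 and 249. Without single libraries, Doxo against NT gave 0 to 1 members and 81 (without NT 1) to 3137 (without Doxo 4) genes beside 1515; Doxo+Cyta against NT 0 (without either NT library) to 226 genes; Doxo+Cyta+DAC against NT 4461 (without NT 1) to 6596 genes beside 6893; and Doxo+Cyta against Doxo 130 (without Doxo+Cyta 19) to 877 (without Doxo 4) genes. With 1 NT library left, it was assumed to vary like the other groups. The cause of these shifts was not tested, apart from the fewer samples.

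Uncalled members changed sign in places. In Doxo against NT CDKN1B was at 0.042 without Doxo 4 and Doxo+Cyta 20, and CDKN2C against Doxo in Doxo+Cyta+DAC at 0.0081 with no filter. Without single libraries, log2 differences in Doxo against NT ran from -0.39 to 0.043 (CDKN1B), -0.065 to 0.0098 (CCND2), -0.14 to 0.013 (CDKN2C) and -0.047 to 0.018 (CDK6); in Doxo+Cyta against NT from -0.012 to 0.32 (CCND2); in Doxo+Cyta+DAC from -0.14 to 0.0061 (CDKN2C, NT), -0.042 to 0.034 (CDKN2C, Doxo) and -0.22 to 0.87 (CCND1, Doxo+Cyta); and in Doxo+Cyta against Doxo from -0.15 to 0.28 (CDK4), -0.19 to 0.39 (CCND3), -0.35 to 0.035 (CDKN2D) and -0.23 to 0.82 (CCND1). No paired analysis was possible because the groups share no replicate number. Depth limits what 0 counts can show for CDKN2A and CDKN2B to the levels given above.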
